A study of Rattus norvegicus with 10 samples.

Results

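The small RNA processing and silencing machinery was described here through 10 rat genes, namely Drosha, Dgcr8, Xpo5, Dicer1, Ago1, Ago2, Ago3, Ago4, Tarbp2 and Prkra. They were taken by gene name from a table of 32623 genes, each name stood beside 1 identifier, and all 10 had enough reads to be tested. RNA was sequenced from 10 samples of the supraoptic nucleus, the hypothalamic home of vasopressin and oxytocin neurons, taken from male Sprague-Dawley rats of 250 to 300 g. In the shOpn3 group (n = 5) an adeno-associated virus had delivered a short hairpin RNA against Opn3, which encodes the light-sensitive protein opsin 3, and in the shControl group (n = 5) a virus had delivered a non-targeting hairpin to the nucleus of the opposite side. Tissue was punched out 2 weeks later and each nucleus was extracted on its own. Both groups therefore carried a virus and a hairpin, and no sample analysed here shows the machinery without them. The labels give no age, no promoter and no cell type for hairpin expression, and they do not say which samples came from the same rat.

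MicroRNAs are short RNAs that lower the output of messenger RNAs. Their primary transcripts fold into hairpins, which Drosha, a nuclear ribonuclease, cuts at the base together with its RNA-binding partner Dgcr8. Exportin-5, the product of Xpo5, carries the freed hairpin to the cytoplasm, where Dicer1 removes the loop with the double-stranded RNA-binding proteins encoded by Tarbp2 and Prkra. An Argonaute protein (Ago1 to Ago4) keeps a single strand and uses its seed, bases 2 to 8, to find target messages. Ago2 is the Argonaute known for cutting a fully matched target. Short hairpin RNAs made from a vector enter the same route at the export step and need Dicer1 and an Argonaute to silence their target.

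The hairpin of Mir146a is printed here because, of the miRNA genes tested, its gene differed most between the groups, as described with its limits further below. The sequence comes from the RefSeq table of build GRCr8 and is read 5′ to 3′. Capitals mark the mature arms, miR-146a-5p first and miR-146a-3p second. Drosha cuts at the outer ends of such arms and Dicer1 at their inner ends.
Mir146a hairpin: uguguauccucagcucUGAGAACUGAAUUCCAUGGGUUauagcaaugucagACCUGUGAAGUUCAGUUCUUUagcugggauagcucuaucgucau

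Between 33158341 and 39958578 reads were assigned to genes per sample. Opn3 had 719, 694, 841, 1007 and 261 normalized counts in shControl replicates 1 to 5 and 145 to 290 in shOpn3. The library labelled shControl replicate 5 thus lay inside the shOpn3 range for the targeted gene. Xpo5, Ago2, the Argonaute sums and the Ago2 ratio are also given without it, and other results include it unless stated. Avp and Oxt, which mark the neurons of this nucleus, were present in every sample and fell in shOpn3. Avp had a log2 fold change of -2.35 (limma, adjusted p = 0.00269) and Oxt of -2.21 (adjusted p = 0.000915). Marker lists of other cells also moved with the groups. Microglial and macrophage markers (13 of 14 called, all higher) summed to 17515 to 21326 normalized counts in shControl and to 29109 to 57171 in shOpn3. Oligodendrocyte markers (12 of 12 called, all lower) summed to 772259 to 1310574 and to 266881 to 499001. Of 12 magnocellular markers 10 were called, all lower, with sums of 109367 to 229705 and 62760 to 99718. Without shControl replicate 5 the highest oligodendrocyte sum of shControl was 1010040 and its lowest magnocellular sum was 140899. T cell markers (5 of 8 called, all higher, Gzmb at 0) summed to 762 to 978 and to 1713 to 4655, and interferon-response genes (14 of 16 called, all higher) to 10786 to 14787 and 18106 to 71165. Astrocyte markers had 4 higher and 1 lower of 10, and neuronal markers 2 higher and 2 lower of 12, and of 8 endothelial and blood markers 0 were called by limma and 1 with the replicate number added to the model. In these bulk samples fewer cells of a type and less RNA per cell cannot be told apart, and the part of cell composition in the results below was not tested.

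The comparison asked whether transcripts of the machinery differed between knock-down and control nuclei. Xpo5 fell, and the other 9 members did not pass the test. Thus 1 of 10 members was called at a limma adjusted p under 0.05, whereas 18.8% of the 15597 genes tested were called (8.48% of those tested were called lower). By an unadjusted p under 0.05, 2 members passed (Xpo5 and Ago4), against 32% of all genes. The median of the absolute log2 fold change was 0.077 for the members and 0.189 for all genes tested. These medians were not matched for read number. The members had group means of 175 normalized counts or more, whereas the genes tested reached down to a mean of 10. The signed medians were -0.05 and -0.02, and the members ranged from -0.23 (Xpo5) to 0.28 (Ago4).

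**Figure D1:**
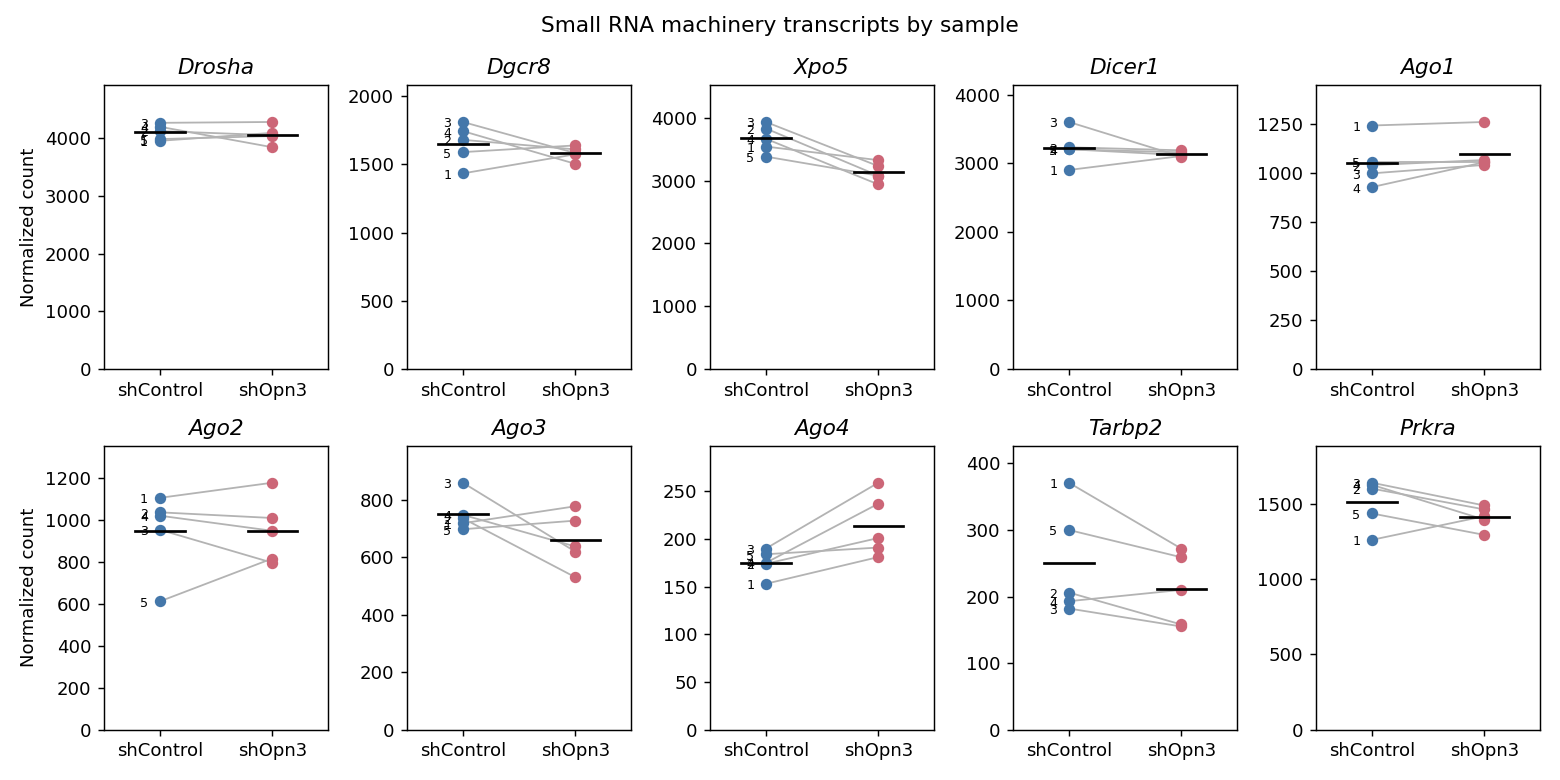
Normalized counts (vertical axes, from 0, a separate scale for each gene) of the 10 machinery genes in each sample of shControl (left of each panel) and shOpn3 (right). Grey lines join samples with the same replicate number, small digits give that number, and black bars are group means; only for Xpo5 do the groups not overlap.

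Drosha and Dgcr8, which form the nuclear Microprocessor complex, did not pass the test. Drosha (ENSRNOG00000013451) had 3958, 4127, 4270, 4202 and 3988 normalized counts in shControl replicates 1 to 5 and 4096, 4055, 4285, 3847 and 4041 in shOpn3 replicates 1 to 5. The ranges overlapped almost entirely, and the spread within a group (3.28% of the mean in shControl and 3.84% in shOpn3) was larger than the difference. Its log2 fold change was -0.02 (SE 0.059, 95% interval -0.14 to 0.11; adjusted p = 0.885 by limma), which places the shOpn3 level between 90.5% and 108% of control.

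Dgcr8 (ENSRNOG00000001886) had 1434, 1680, 1811, 1744 and 1590 in shControl and 1574, 1610, 1583, 1504 and 1639 in shOpn3. The shOpn3 samples all lay inside the wider shControl range. Its log2 fold change was -0.06 (SE 0.075, 95% interval -0.22 to 0.11; adjusted p = 0.639 by limma). The Drosha protein is known to cut a hairpin in the Dgcr8 message, so the balance of the transcripts was also followed within each sample. The log2 ratio of Drosha to Dgcr8 was 1.32 ± 0.088 in shControl and 1.36 ± 0.051 in shOpn3 (SD over 5 samples each), a difference of 0.04 that was higher in 3 of 5 pairs (exact two-sided permutation test, p = 0.349, adjusted over 4 ratios 0.698).

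Xpo5 (ENSRNOG00000019085), the gene of the hairpin exporter, was the member that fell. It had 3543, 3831, 3935, 3667 and 3383 normalized counts in shControl replicates 1 to 5 and 3327, 3080, 3232, 2940 and 3079 in shOpn3 replicates 1 to 5. The highest shOpn3 sample (replicate 1) lay just below the lowest shControl sample (replicate 5), so the groups did not overlap, which was the case for 15.3% of all genes tested. The means were 3672 ± 221 and 3132 ± 150 (SD over 5 samples each), and Xpo5 fell by 0.23 on the log2 scale (SE 0.066, 95% interval -0.37 to -0.08; adjusted p = 0.0304 by limma), to 85.3% of control. All 5 pairs were lower, at 93.9%, 80.4%, 82.1%, 80.2% and 91.0% of the same-numbered control; over all genes, 39.4% had all 5 pairs in the same direction. Pairs 2, 3 and 4 differed more than pairs 1 and 5. The change was small among the called genes, of which 57 of 2940 (1.94%) differed by less.

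The call for Xpo5 was close to the threshold. Beside it, edgeR called 19.4% of all genes, quantile normalization 19.1%, limma-voom with sample quality weights 32.6% and the replicate block 30.3% (15.1% higher and 15.2% lower). The call was lost when any of shControl replicates 2, 3 or 4 or shOpn3 replicates 2, 3, 4 or 5 was left out (log2 fold change -0.24 to -0.20, limma adjusted p from 0.0565 to 0.0823), when both samples numbered 2, 3, 4 or 5 were (0.0506 to 0.139) and under quantile normalization (-0.18, adjusted p = 0.0504). It held without shControl replicate 5 (-0.26, adjusted p = 0.0203), in an edgeR quasi-likelihood test (-0.24, adjusted p = 0.0273) and with a replicate block (adjusted p = 0.0184). The authors' deposited table gave -0.23 (standard error 0.068) with an adjusted p of 0.00554. The 3 genes whose log2 values across the 10 samples were most like those of Xpo5 were Arsg (Pearson r = 0.973, Spearman rho = 0.976), Golgb1 (0.968 and 0.976) and Syndig1 (0.967 and 0.976). These genes were themselves called lower in shOpn3, with log2 fold changes of -0.52, -0.29 and -0.78, so the likeness includes the step between the groups.

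Dicer1 (ENSRNOG00000010711), the cytoplasmic hairpin ribonuclease, had 2905, 3236, 3606, 3206 and 3208 in shControl and 3109, 3192, 3099, 3163 and 3122 in shOpn3. The shOpn3 samples were packed within 1.25% of their mean (coefficient of variation), inside a shControl range with 7.70%. The fitted log2 fold change was -0.04 (SE 0.067, 95% interval -0.18 to 0.10; adjusted p = 0.725 by limma). Under quantile normalization both Drosha and Dicer1 changed sign, to 0.034 and 0.0072, without a call. The log2 ratio of Dicer1 to Xpo5 was -0.19 ± 0.085 in shControl and 0.0037 ± 0.083 in shOpn3 (SD over 5 samples each), higher in 5 of 5 pairs. The difference of 0.19 had an exact two-sided permutation p of 0.0159, which after adjustment over the 4 ratios was 0.0635 and did not pass.

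**Figure D2:**
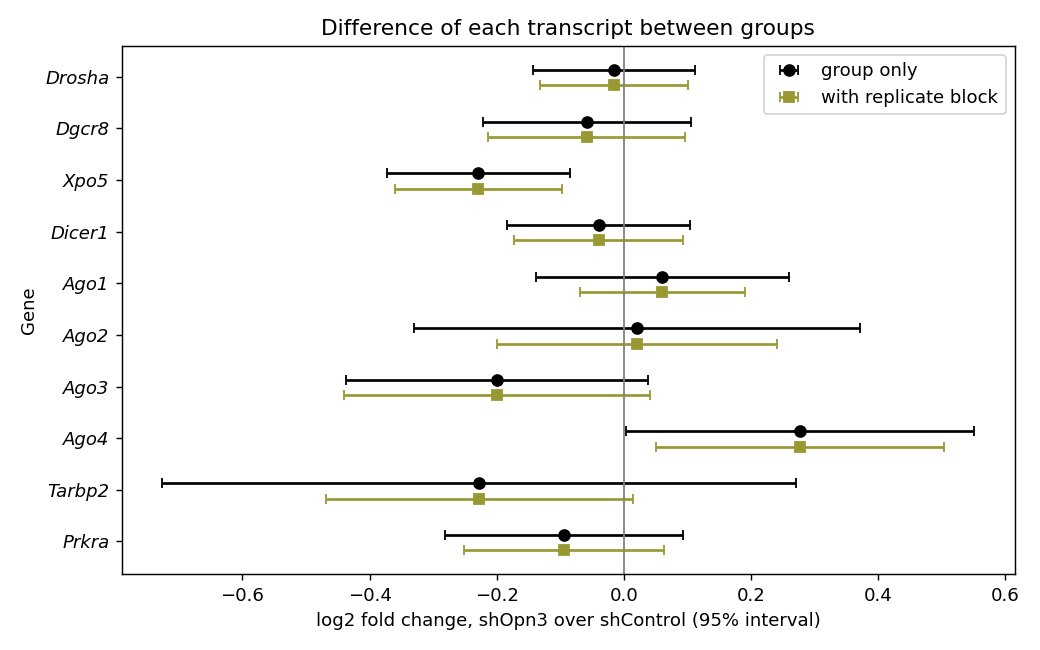
Log2 fold change of each machinery gene, shOpn3 over shControl (horizontal axis), with 95% intervals from limma for the model with the group alone (circles) and with a replicate block (squares). With the group alone, the intervals of Xpo5 and Ago4 lie on one side of 0, and only Xpo5 passed after adjustment over all genes.

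None of the Argonaute genes passed the test, and their estimates differed in sign. Ago2 (ENSRNOG00000008533), the slicing Argonaute, had 1104, 1035, 952, 1019 and 611 normalized counts in shControl and 1176, 1008, 795, 947 and 815 in shOpn3. The lowest value of all was that of shControl replicate 5, the library that was also low in Opn3. The log2 fold change was 0.02 (SE 0.162, 95% interval -0.33 to 0.37; adjusted p = 0.947 by limma), and without shControl replicate 5 it was -0.13 (adjusted p = 0.499).

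Ago1 (ENSRNOG00000055915) had 1241, 1039, 997, 927 and 1056 in shControl and 1259, 1065, 1040, 1054 and 1056 in shOpn3. Replicate 1 was the highest sample of both groups. Every pair was at or above its control, by 0.00011 to 0.18 on the log2 scale, and the log2 fold change of 0.06 was smaller than its standard error (0.092; 95% interval -0.14 to 0.26, limma adjusted p = 0.695).

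Ago3 and Ago4 had the largest differences of the family, in opposite directions. Ago3 (ENSRNOG00000034269) had 719, 736, 860, 748 and 698 in shControl and 778, 531, 620, 638 and 728 in shOpn3. Replicates 2, 3 and 4 of shOpn3 lay below every control, and replicates 1 and 5 lay inside the control range. Its log2 fold change was -0.20 (SE 0.109, 95% interval -0.44 to 0.04; adjusted p = 0.236 by limma).

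Ago4 (ENSRNOG00000025596), with the fewest reads of the 10 genes, had 153, 174, 190, 175 and 184 in shControl and 181, 201, 259, 237 and 191 in shOpn3. All 5 pairs were higher, by 0.06 to 0.45 on the log2 scale, and the groups overlapped through shOpn3 replicate 1. The fitted log2 fold change was 0.28 (SE 0.126, 95% interval 0.0032 to 0.55; limma unadjusted p = 0.0477, adjusted p = 0.151), and with the replicate block the adjusted p was 0.0660. Ago1, Ago3 and Ago4 are neighbouring genes in RefSeq build GRCr8, with Ago1 between the other two.

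Reads of the 4 Argonaute genes together summed to 2549 to 3216 normalized counts in shControl and to 2714 to 3394 in shOpn3. Ago2 took 24.0% to 35.5% of this sum in shControl and 29.2% to 35.9% in shOpn3, and Ago4 took 4.75% to 7.20% and 5.34% to 9.54%. Without shControl replicate 5 the control ranges were 2869 to 3216 for the sum, 31.7% to 35.5% for Ago2 and 4.75% to 6.33% for Ago4. These shares are not corrected for transcript length and serve to compare samples, not genes. The log2 ratio of Ago2 to the mean of the other three was 0.84 ± 0.35 in shControl and 0.82 ± 0.244 in shOpn3 (SD over 5 samples each; exact two-sided permutation test, p = 0.944, adjusted 0.944). The difference of -0.03 became -0.17 without shControl replicate 5 and did not pass the exact permutation test.

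Tarbp2 and Prkra encode the double-stranded RNA-binding partners of Dicer, and their proteins are also known to inhibit and to activate the RNA-sensing kinase PKR. Tarbp2 (ENSRNOG00000042355) had 371, 206, 182, 193 and 300 in shControl and 272, 158, 155, 210 and 259 in shOpn3. It followed the replicate number, with replicates 1 and 5 the highest of both groups, and 4 of 5 pairs were lower in shOpn3. The log2 fold change was -0.23 (SE 0.229, 95% interval -0.73 to 0.27; adjusted p = 0.538 by limma). Its standard error was 0.105 with the replicate block, and the adjusted p was then 0.138. Without shControl replicate 1, the highest sample, the log2 fold change of Tarbp2 was -0.071 (limma, adjusted p = 0.863), and over all samples or pairs left out in turn it ranged from -0.33 to -0.071.

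Prkra (ENSRNOG00000011195) had 1259, 1599, 1638, 1624 and 1434 in shControl and 1416, 1461, 1487, 1393 and 1292 in shOpn3. Pair 1 was higher and the other 4 pairs were lower. Its log2 fold change was -0.09 (SE 0.086, 95% interval -0.28 to 0.09; adjusted p = 0.494 by limma). The log2 ratio of Tarbp2 to Prkra was -2.65 ± 0.610 in shControl and -2.78 ± 0.444 in shOpn3 (SD over 5 samples each; exact two-sided permutation test, p = 0.690, adjusted 0.921).

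Partner genes of the pathway were read from the same fit in 7 lists. Of 110 partner genes tested, 14 (12.7%) were called, 8 higher and 6 lower, against 18.8% of all genes. Their median log2 fold change was -0.0023. With a replicate block, which adds the replicate number to the model, 32 of the 110 were called, where 30.3% of all genes were called. Each list count below is to be read beside these shares of all genes. By limma 10.4% of all genes were called higher and 8.48% lower, and with the block 15.1% and 15.2%. The groups did not overlap for 15.3% of all genes, and 39.4% had all 5 pairs in the same direction. Such remarks on genes below are to be read beside these shares too.

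Among partners of nuclear processing and export, Mettl3, which encodes the RNA methyltransferase that marks primary miRNA transcripts, was the single gene called of 15 tested. It fell from 1620 ± 112 to 1246 ± 73.2 normalized counts (mean ± SD of 5 samples each, log2 fold change -0.38, SE 0.074, and adjusted p = 0.00414 by limma), with no overlap of the groups. Ddx5, the helicase of the Microprocessor and the most abundant uncalled gene of the list by reads, had a log2 fold change of 0.05 (SE 0.098, adjusted p = 0.749). The list's median was -0.12. With the block, 5 of 15 were called, all lower. The additional genes included Khsrp, Safb and Ran, named after their values were seen. Ran encodes the GTPase that drives export by exportin-5 (log2 fold change -0.20, limma adjusted p = 0.0726, and 0.0453 with the block). DESeq2 called 2 of 15 and limma-voom with sample quality weights 4 of 15, all lower, where the latter called 32.6% of all genes.

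Double-stranded RNA-binding partners and the PKR branch had 3 genes called of 10, all higher, where 10.4% of all genes were called higher. Ifih1, which encodes the RNA sensor MDA5, rose from 510 ± 85.2 to 1088 ± 380 (log2 difference 1.04 with SE 0.214, and adjusted p = 0.00552 by limma). Dhx58, which encodes the related sensor LGP2, rose from 289 ± 29.9 to 653 ± 275 (1.08, SE 0.231, adjusted p = 0.00657), and Zc3hav1, which encodes the antiviral protein ZAP, from 1209 ± 141 to 2155 ± 663 (0.79, SE 0.180, adjusted p = 0.00944; mean ± SD of 5 samples). All 3 were higher in 5 of 5 pairs, with no overlap of the groups. Their highest values were in shOpn3 replicate 4, which also held the highest sum of interferon-response markers (71165). Eif2ak2, the gene of PKR itself, had a log2 fold change of 0.61 and was named after its values were seen. It did not pass in limma (adjusted p = 0.0625) or edgeR (0.0584), and passed with the block (0.00665), in DESeq2 (0.0208) and in limma-voom with sample quality weights (0.0250). Zfr, another double-stranded RNA-binding gene, had a log2 fold change of 0.12 (SE 0.107, adjusted p = 0.498).

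Among genes of Argonaute loading, 2 of 13 were called, both lower. Snd1, which encodes the Tudor staphylococcal nuclease found in silencing complexes, fell from 7081 ± 364 to 5288 ± 278 (log2 difference -0.42 with SE 0.065, and adjusted p = 0.00108 by limma). Tsnax, which encodes translin-associated factor X of the C3PO nuclease that clears the passenger strand, fell from 8653 ± 736 to 6419 ± 296 (-0.43, SE 0.072, adjusted p = 0.00177; mean ± SD of 5 samples). For both the groups did not overlap and 5 of 5 pairs were lower. The chaperone gene Hsp90ab1 was lower in 5 of 5 pairs without passing in limma (log2 fold change -0.26, SE 0.096, adjusted p = 0.0841), edgeR (0.0667) or with the block (0.0946). It passed in DESeq2 (-0.25, adjusted p = 0.0194) and in limma-voom with sample quality weights (-0.32, adjusted p = 0.00284). With the block 3 of 13 genes were called, all lower, the additional one being Fkbp4, named after its values were seen. DESeq2 called 4 of 13 and limma-voom with sample quality weights 6 of 13, all lower, where the latter called 32.6% of all genes. The 6 included Stip1, Hsp90aa1 and Hspa8, named after their values were seen.

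Among 30 genes of silencing effectors and messenger decay, 2 were called, both higher. Pabpc1, which encodes the poly(A)-binding protein displaced during silencing, rose from 7190 ± 471 to 10886 ± 2167 (log2 difference 0.58 with SE 0.121, and adjusted p = 0.00581 by limma), and Edc3, which encodes an enhancer of decapping, from 571 ± 41.4 to 680 ± 29.5 (0.25, SE 0.080, adjusted p = 0.0425; mean ± SD of 5 samples). The call for Edc3 was lost in 13 of 26 alternatives, with the same direction. Cnot1, the scaffold of the deadenylase complex, had a log2 fold change of 0.07 (SE 0.079, adjusted p = 0.606). With the block 6 of 30 were called, all higher. The additional ones, named after their values were seen, were Xrn1, Cnot6, Cnot6l and Fmr1. Where limma-voom with sample quality weights called 32.6% of all genes, it called 5 of 30 here. Beside Pabpc1 and Edc3 these were Mov10 and Dcp1a, both higher, and Tnrc6a, which was lower (log2 fold change -0.22, adjusted p = 0.0180). They too were named after their values were seen.

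No gene of small RNA tailing and turnover was called by limma (0 of 12), and edgeR, DESeq2 and limma-voom with sample quality weights also called 0. By an unadjusted limma p under 0.05, 2 of 12 passed, where 32% of all genes did. The 2 were Dis3l2 (log2 fold change -0.19) and Tut7 (0.18), named after their values were seen. The most abundant by reads, Csnk1a1, had a log2 fold change of 0.02 (SE 0.095, adjusted p = 0.920). With the block 5 of 12 were called, all higher, namely Tent2, Ppp6c, Xrn2, Eri1 and Tut7, by 0.17 to 0.26 on the log2 scale; they were named after their values were seen.

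The Piwi pathway, which silences transposons in the germline, had few reads. Of 6 genes tested, Mov10l1, which encodes its helicase, rose from 19.0 ± 3.46 to 47.0 ± 7.12 normalized counts (log2 difference 1.27 with SE 0.193, and adjusted p = 0.00102 by limma), and Pld6, a mitochondrial outer-membrane gene, fell from 43.1 ± 11.4 to 21.1 ± 1.96 (-0.96, SE 0.205, adjusted p = 0.00650; mean ± SD of 5 samples). Piwil2, the most abundant uncalled gene by reads, had a log2 fold change of 0.26 (SE 0.117, adjusted p = 0.145) although its groups did not overlap.

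Protein-coding genes that host a miRNA had 4 of 24 called. With the block 7 of 24 were called, 2 higher and 5 lower, the additional ones being Ptprn2, Ctdspl and Mcm7, named after their values were seen. DESeq2 called 6 of 24 and limma-voom with sample quality weights 9 of 24, where the latter called 32.6% of all genes. Slit2, an axon guidance gene, fell from 5413 ± 1035 to 3034 ± 473 (log2 difference -0.83 with SE 0.141, and adjusted p = 0.00193 by limma), and Ptprn, a gene of dense-core vesicles, from 14261 ± 3134 to 8841 ± 1664, with overlapping groups (-0.68, SE 0.155, adjusted p = 0.00929). Chm, which encodes Rab escort protein, rose from 918 ± 125 to 1295 ± 117 (0.50, SE 0.108, adjusted p = 0.00668; mean ± SD of 5 samples). Pank2 rose by 0.30 on the log2 scale (limma, adjusted p = 0.0444), with overlapping groups. Huwe1 had a log2 fold change of -0.01 (SE 0.099, adjusted p = 0.938).

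**Figure D3:**
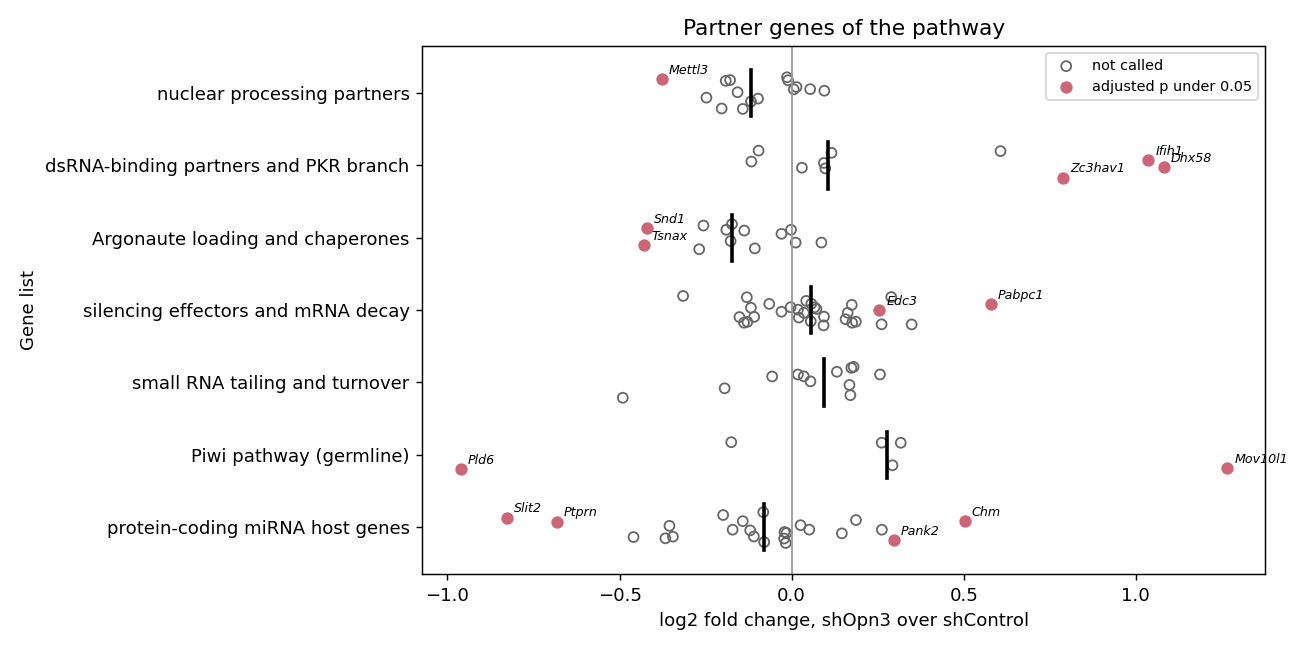
Log2 fold change, shOpn3 over shControl (horizontal axis), of each tested gene of the 7 partner lists (vertical axis; points are spread vertically for legibility). Filled red points passed at a limma adjusted p under 0.05 and are named, open points did not, and black bars are list medians, which lie between -0.17 and 0.28.

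The table also held 436 rows named for miRNA genes. The labels name total RNA and no selection for small RNA, so the counts are read as reads assigned to the gene and not as mature miRNA. Reads were found for 199 of the rows and 25 reached a mean of 10 normalized counts, with a median mean of 22.6 and the highest, Mir770, at 207. Of the 25 tested, 2 (8%) were called, both higher, against 10.4% of all genes called higher. Mir146a, among these 2, reached the mean of 10 only through shOpn3 (means 6.9 in shControl and 38.2 in shOpn3). The count is therefore not independent of the difference. Mir221 and Mir374b also had shControl means under 10, and Mir1249 and Mir3546 had shOpn3 means under 10, all named after their values were seen. The median log2 fold change of the 25 was 0.09. Mature sequences were found in RefSeq (build GRCr8) under the gene name for 22 of the 25.

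The mature sequences of the genes called are given 5′ to 3′ with the seed in capitals, since the seed sets which messages a silencing complex can find. No other tested miRNA gene with a matched sequence shared these seeds.
rno-miR-146a-5p: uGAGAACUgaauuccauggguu
rno-miR-146a-3p: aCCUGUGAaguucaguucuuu
rno-miR-2985: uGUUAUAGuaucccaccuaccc

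Mir146a, known as a miRNA gene induced by inflammatory signalling, had 11.2, 6.11, 8.16, 3.75 and 5.27 normalized counts in shControl and 24.0, 28.7, 64.5, 52.2 and 21.6 in shOpn3. Every shOpn3 sample lay above every control, and replicates 3 and 4 were the highest. The means were 6.90 ± 2.89 and 38.2 ± 19.1 (SD over 5 samples each), and Mir146a rose by 2.25 on the log2 scale (SE 0.360, and adjusted p = 0.00131 by limma). The control values rest on 4 to 11 reads per library. The shControl mean lay under the filter of 10 normalized counts, so Mir146a entered the test only through its shOpn3 values. Its selection is therefore not independent of the difference. In RefSeq Mir146a overlaps a long non-coding RNA gene, LOC134480673, and reads of the overlapping genes cannot be told apart. The microglial and T cell marker sums were likewise highest in shOpn3 replicates 3 and 4, at 46312 and 57171 and at 4146 and 4655; their part in the rise was not tested.

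Mir2985 had 38.7, 65.1, 62.2, 50.6 and 39.0 in shControl and 88.3, 108, 103, 71.5 and 81.2 in shOpn3. It rose by 0.83 on the log2 scale (SE 0.195, and adjusted p = 0.0110 by limma), with no overlap of the groups, and lost the call under quantile normalization (0.66, adjusted p = 0.0600). In RefSeq it lies within Gria2, which encodes a subunit of AMPA-type glutamate receptors. Gria2 was itself called higher, with a log2 fold change of 0.87 (SE 0.124, and adjusted p = 0.000778 by limma), and reads of the host and of the miRNA gene cannot be told apart.

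The remaining 23 miRNA genes did not pass in limma, edgeR, DESeq2 or with the replicate block. Limma-voom with sample quality weights called 32.6% of all genes and 3 of the 25 miRNA genes. In that fit Mir374b passed (log2 fold change 1.12, adjusted p = 0.0322, named after its values were seen). Its shControl mean of 8.36 was likewise under the filter, and its shOpn3 mean was 15.3. The 23 include widely studied genes such as Mir21 (log2 fold change -0.14, SE 0.303), Mir22 (-0.28, SE 0.185), Mirlet7d (0.18, SE 0.208) and Mir124-2 (0.23, SE 0.272), which were named after their values were seen. Their intervals are wide, as for Mir21 from -0.80 to 0.52, which includes a difference of the size seen for Xpo5.

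**Figure D4:**
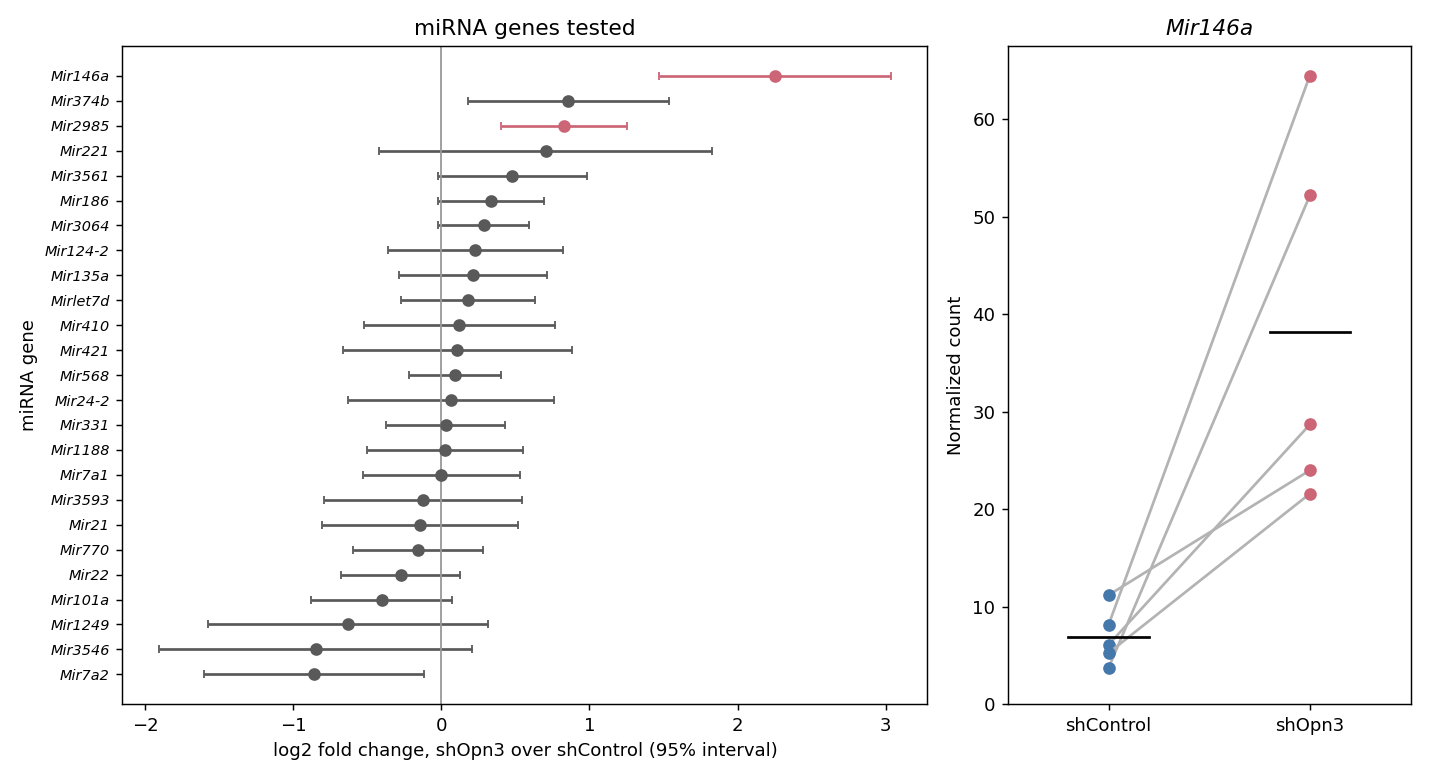
Left, log2 fold change with its 95% interval (horizontal axis), shOpn3 over shControl, for the 25 miRNA genes tested, with the 2 called genes in red. Right, normalized counts of Mir146a by sample, with lines joining equal replicate numbers and black bars for group means; all shOpn3 samples (21.6 to 64.5) lie above all shControl samples (3.75 to 11.2).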

How the data were processed

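Rat supraoptic nucleus was sequenced in 5 shControl and 5 shOpn3 samples. Per the submitters' processing notes, FastQC, STAR, featureCounts and DESeq2 were used; versions, genome build, annotation and strand setting are not given in the sources used here, so overlapping genes are uncertain. The authors deposited a signal per gene and sample, namely counts divided by 1 size factor per sample; dividing by each sample's smallest positive value gave whole reads for 100% of values (tolerance 1e-06). Per the file headers, the authors' comparison was deposited as log2 fold changes, a Wald score and p-values.

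The scale was log2(normalized count + 1). Genes averaging 10 or more normalized counts were kept, and groups were compared with limma 3.58.1 in R 4.3.3 (trend, group only, two-sided, Benjamini-Hochberg over 15597 genes, threshold 0.05). A fold change on this scale understates low genes. Intervals are limma's 95% intervals. Ratios were compared by exact permutation tests (smallest p 0.00794). The fits were tested on simulated counts drawn independently for each sample, without an effect of replicate number or of cell composition. Recovery of changes as small as that of Xpo5 was not required, so this check does not bear on its call. On the recovered reads, edgeR 4.0.16 (3025 genes called) and DESeq2 1.42.0 (3711) were alternatives.

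Members and lists were chosen with earlier results of these data known. From each list, up to 3 called genes with the smallest p and the uncalled gene with the highest mean were named, and the called miRNA genes. Ncbp2 stood beside 2 identifiers and was left out. No label says that equal replicate numbers mark a rat. Deviations of same-numbered samples correlated in 5 of 5 pairs (r from 0.121 to 0.439), so the numbers were taken to pair the samples. Samples of different numbers had a median of -0.205 and ranged from -0.447 to 0.36, which includes the lowest pair. Deviations were taken from each gene's group mean, so positive values for equal numbers push those for different numbers below 0. The negative median is therefore no separate evidence of pairing. P-values set a group difference against the spread between these samples, which limma moderates with that of other genes. Those of the group-only fit and of the permutation tests treat the 10 samples as independent and leave the pairing out. The replicate block and the sign-flip tests use it.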

Additional observations from a re-analysis of the deposited data

Results flagged for a closer look

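Among 80 sets of 5 values (a gene in a group), 2 held a sample whose gap to its neighbour took up most of the spread; about 4 would arise by chance at 1 in 20. For Ago1 this was shOpn3 replicate 1, at 1259 normalized counts against 1065 for its neighbour, and without that sample the log2 fold change of Ago1 was 0.0094 (limma, adjusted p = 0.957). For Oxt it was shControl replicate 1, at 56716 against 21354.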

How the results depend on the processing

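The 10 members took 260 values over 26 alternative fits. Of these, 234 kept direction and side of the threshold, 12 (all Xpo5) lost the call, 1 gained it (Prkra, log2 fold change -0.20, limma-voom with sample quality weights, adjusted p = 0.0330) and 13 changed sign without a call. Xpo5 kept its direction in all 26 (-0.28 to -0.18; adjusted p 0.00184 to 0.139). The number of members called was 0 under quantile normalization, 2 with quality weights, and 0 to 1 when samples or pairs were left out. Genes called in all numbered 2940; they were 5085 with quality weights, 4726 with the replicate block, 4777 by edgeR with that block, and 1604 to 3056 with samples or pairs left out, fewest without both samples numbered 3 (1604) or 2 (1895). Pathway-list calls were 30, 32 and 31 in the first 3 of these. Without a call, signs changed under quantile normalization for Drosha (0.034), Dicer1 (0.0072) and Huwe1 (0.093), under edgeR for Ago2 (-0.0024), and with quality weights for Ago2 (-0.16), Tarbp2 (0.0046), Ddx5 (-0.030), Cnot1 (-0.019) and Csnk1a1 (-0.081). Leaving out samples or pairs gave ranges across 0 for Drosha (-0.035 to 0.012), Dicer1 (-0.077 to 0.0049), Ago2 (-0.13 to 0.091), Ddx5 (-0.014 to 0.10), Csnk1a1 (-0.033 to 0.074) and Huwe1 (-0.080 to 0.043), and for the log2 ratios Tarbp2 to Prkra (-0.27 to 0.087) and Ago2 to the other Argonautes (-0.17 to 0.046). The cause was not tested. With shControl replicate 5 left out, Ago2 was at -0.13. The replicate block changed no call of a member; paired sign-flip tests of the 4 ratios gave p from 0.0625, the smallest 5 pairs allow, to 0.9375. Of 647 values of the other named genes, 615 kept direction and side.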
